A study of Mus musculus with 29 samples.

Results

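The regions described here are the 936 ATAC-seq regions of adult mouse prefrontal cortex that were less accessible in Het than in WT libraries of a Myt1l knockout line. They were chosen from the deposited accessibility values by a rule with 2 conditions. The mean level over 12 libraries had to lie from 2 to under 20 CPM (a read count scaled to the size of the library), and the mean log2 CPM of the Het libraries had to lie at least 0.35 below that of the WT libraries. The level condition left 112774 of the 237287 adult regions, called the level band below, and the 936 less open regions were 0.830% of it and 0.394% of the adult table. Both tables of the series hold 443195 regions, and the embryonic table numbers its own set, so its values were not used here.

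The study took bulk prefrontal cortex from adult mice of the knockout line and compared 6 WT with 6 Het libraries. Het is taken here as 1 mutant Myt1l allele, and each genotype comprised 3 males and 3 females. The sources used here do not give the exact age, the allele, the background strain or any pooling of animals, and no treatment is named for any group. Since the labels do not tie each library to its own animal, a p-value here reflects only how much libraries vary, which may be technical.

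Myt1l encodes a zinc finger transcription factor of neurons that is known mainly for holding down genes of other cell lineages and for supporting neuronal maturation. ATAC-seq uses a transposase that cuts accessible DNA, so promoters and enhancers in use give many reads and closed chromatin gives few. The prefrontal cortex mixes neurons with several kinds of glia. In such bulk tissue, fewer cells of a type and lower accessibility per cell cannot be told apart. The deposited tables give region numbers and no coordinates or genes, so no sequence, gene or cell type marker could be attached to a region, and neither the tissue nor the genotype label was checked against a gene.

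The less open regions were weakly accessible and their differences were small. Their mean level had a median of 2.57 CPM and ran from 2.00 to 17.9 CPM, while the median of the level band was 4.31 CPM. The Het minus WT difference had a median of -0.39 log2, a level 23.9% lower, and its lowest value was -0.69 log2, a level 38.1% lower. Averaged over 6 libraries, the median region stood at 2.93 CPM in WT and 2.21 CPM in Het. Because the rule used this contrast, these values are a description and no test of them is given.

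Most of the set lay close to the threshold of the rule. The difference was between -0.40 and -0.35 log2 at 508 regions, between -0.45 and -0.40 at 247, between -0.50 and -0.45 at 115, and at or below -0.50 at 66. At the edge of the difference, the last 3 regions inside were at -0.35008, -0.35007 and -0.35006 log2 and the first 3 outside at -0.34994, -0.34987 and -0.34979 log2. At the lower edge of the level, the last region inside had 2.003 CPM and the first outside 2.000 CPM (1.99996 before rounding). A further 2827 regions between 1 and 2 CPM had a difference as low. The upper edge removed nothing, since 0 regions at or above 20 CPM had such a difference.

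In every WT library the median of the set was above its mean over all libraries, and in every Het library it was below. The WT medians were 2.92, 2.98 and 3.08 CPM in males 1, 28 and 62 and 2.90, 2.98 and 3.001 CPM in females 7, 35 and 58. The Het medians were 2.36, 2.18 and 2.20 CPM in males 11, 41 and 47 and 2.28, 2.22 and 2.32 CPM in females 21, 44 and 50. The 2 ranges do not overlap, which the choice of the regions fixes, and over the whole level band the library medians were alike, at 4.29 to 4.33 CPM.

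**Figure D1:**
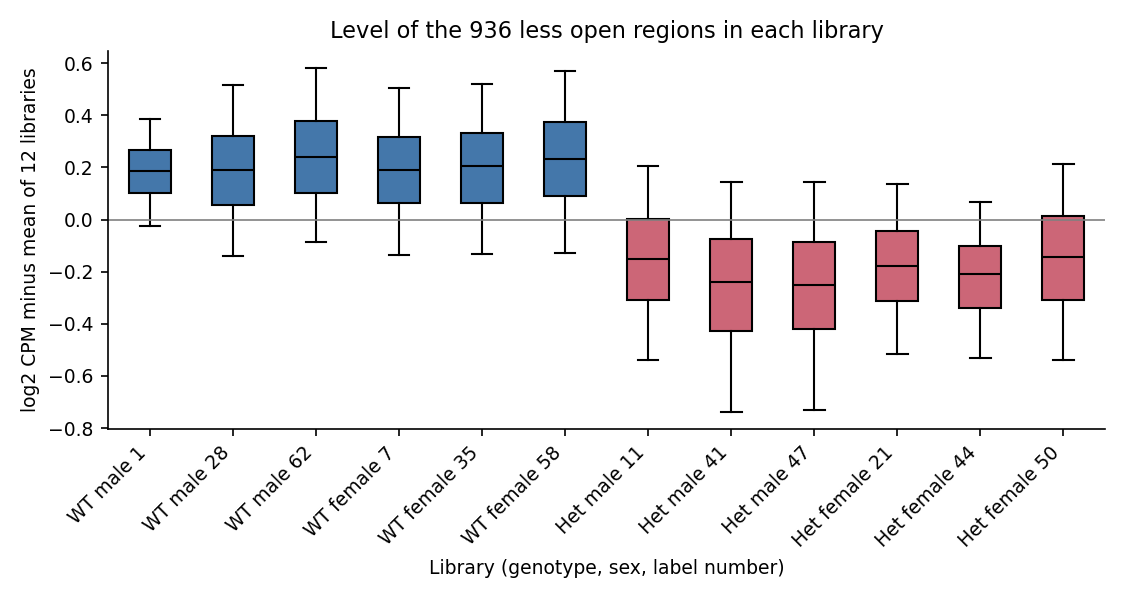
Log2 CPM minus the mean of the 12 libraries (y axis) at the 936 less open regions, for each library (x axis; blue WT, red Het). Boxes span the quartiles with the median as a line, whiskers the 5th to 95th percentile; the 6 WT medians lie between 0.18 and 0.24 log2 and the 6 Het medians between -0.25 and -0.14 log2.

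Single libraries nevertheless contributed unequally. Het males 41 and 47 were the lowest of the 12 libraries at 255 and 234 regions, against 113 to 137 for the other 4 Het libraries. WT male 62 was the highest at 233 regions and WT male 1 at 22, with the other 4 WT libraries between 129 and 204. Without Het male 41, or without Het male 47, the difference stayed at or below -0.35 log2 at 703 of the 936 regions, the lowest count over the 12 libraries. Without WT male 1 it did so at 840, the highest. When the whole rule was applied again to 11 libraries, 967 to 1283 regions met it, and 699 to 815 of these were among the 936.

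The order of single libraries within a region was less clean than these medians. All 6 Het libraries lay below all 6 WT libraries at 182 of the 936 regions (19.4%), against 0.699% of the level band. The rule used the same contrast, so nothing is read from that gap. At 258 regions 5 Het libraries lay below every WT library, at 231 regions 4, at 166 regions 3, and at 99 regions fewer than 3. At 750 regions all 6 Het libraries were below the WT mean, and at 170 regions 5 were.

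The spread among libraries of one genotype and sex was close to that of other regions of the same level. The within-group SD had a median of 0.21 log2 at the less open regions and 0.15 log2 over the rest of the band, which is more accessible. Within a level class it was 0.22 log2 both at the less open regions and in all regions of 2 to under 2.5 CPM, 0.21 and 0.20 from 2.5 to under 3 CPM, 0.19 and 0.18 from 3 to under 4 CPM, and 0.15 in both from 4 to under 6 CPM. It was 0.14 and 0.11 from 6 CPM up, where 17 of the regions lie. Not matched for level, it was highest among the 3 Het males, with a median of 0.22 log2 (0.15 over the band), and lower among the 3 Het females at 0.18 (0.12), the 3 WT females at 0.17 (0.15) and the 3 WT males at 0.14 (0.10).

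The set was concentrated at the lowest levels of the band, where libraries spread most. Regions of 2 to under 2.5 CPM were 15.4% of the band and 46.4% of the less open regions: 434 of 17328 regions there met the rule (2.505%). The share was 1.62% from 2.5 to under 3 CPM, 0.863% from 3 to under 4 CPM, 0.355% from 4 to under 6 CPM and 0.0461% (17 of 36840) from 6 CPM up. Over the same classes the median within-group SD of all band regions went from 0.22 to 0.11 log2. The share of regions past the fixed threshold and the spread between libraries thus went down together.

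The number of less open regions was set beside the number given by the other labelled contrasts of 6 against 6 libraries at the same level and size. Regions more open in Het by at least 0.35 log2 numbered 979 (0.868% of the band), slightly more than the 936 less open ones. Male minus female gave 2416 regions at or below -0.35 log2 (2.14%) and 2614 at or above 0.35 log2 (2.32%). The genotype by sex term, 0.5 times the difference between the Het effects in males and in females, gave 3 and 19. The authors' adjustment before deposit had removed directions that held 68.7% of this term and 0.0667% of the genotype contrast. Its counts and spread are therefore no like comparison. The SD over the band was 0.14 log2 for Het minus WT, 0.18 for male minus female and 0.07 for the genotype by sex term. So the genotype contrast gave fewer regions past this size than sex did, and about as many in one direction as in the other.

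**Figure D2:**
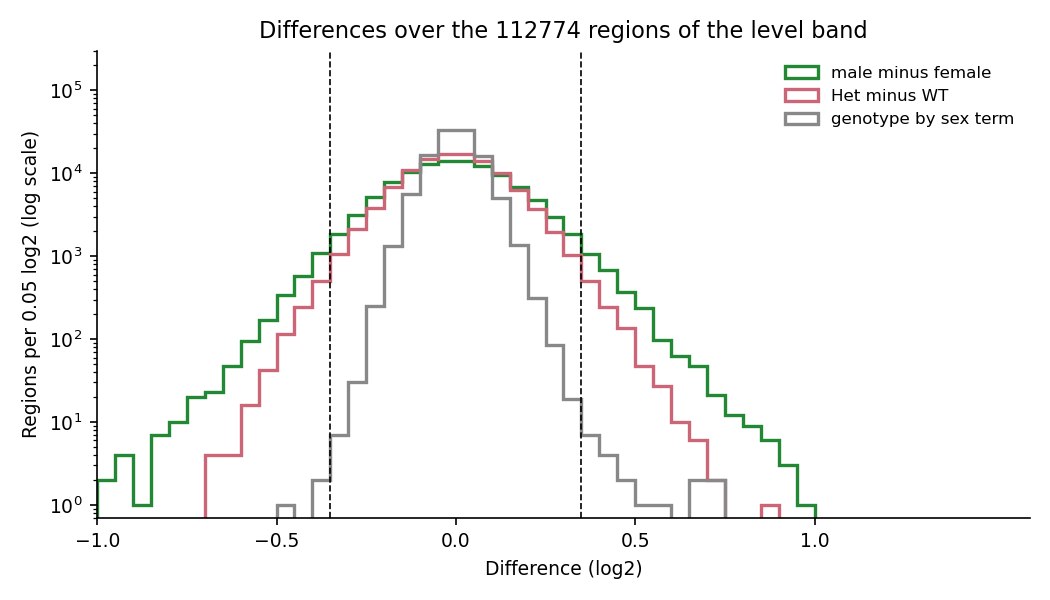
Number of regions per 0.05 log2 (y axis, log scale) against the difference (x axis, log2) for male minus female (green), Het minus WT (red) and the genotype by sex term (grey) over the 112774 regions of the level band; dashed lines mark -0.35 and 0.35 log2. The red curve is about symmetric, with 936 regions beyond the left line and 979 beyond the right, and lies inside the green one. Beyond 1 log2 in either direction, 29 regions for sex and 9 for genotype are not drawn. Most of the genotype by sex term was removed before deposit, so the grey curve is no like comparison.

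The share went down with level for the other direction of the genotype contrast and for both directions of the sex contrast. Regions lower in males went from 4.09% of the class at 2 to under 2.5 CPM to 0.793% from 6 CPM up, and regions higher in males from 4.85% to 0.570%. Regions more open in Het went from 2.34% to 0.114%. In the highest class, 42 regions were more open in Het and 17 less open, the one class in which the 2 directions differed by more than 1.5 times.

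**Figure D3:**
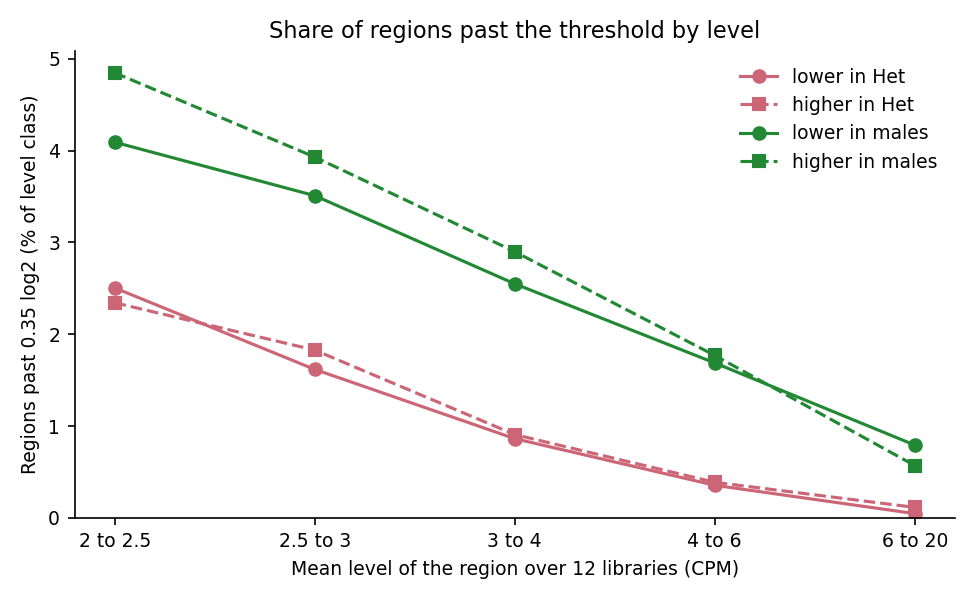
Share of regions past 0.35 log2 (y axis, % of the level class) against the mean level of the region (x axis, CPM) for regions lower in Het (solid red), higher in Het (dashed red), lower in males (solid green) and higher in males (dashed green). All 4 lines go down with level, and the 2 red lines run close together, at 2.505% and 2.34% in the lowest class.

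The region with the lowest Het minus WT difference, all_pfc_peak_161613, was at the lower edge of the band. It measured 2.65, 1.66 and 3.27 CPM in WT males, 2.78, 1.97 and 2.69 CPM in WT females, 1.24, 1.86 and 1.51 CPM in Het males and 1.82, 1.44 and 1.31 CPM in Het females. WT male 28 lay within the Het range, so the groups overlap. The means were 2.505 ± 0.586 CPM in WT and 1.53 ± 0.256 CPM in Het (SD, n = 6 each), with differences of -0.69 log2 in males and -0.70 log2 in females.

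The second lowest was all_pfc_peak_69695, at 3.90, 3.52 and 4.48 CPM in WT males and 2.86, 3.29 and 3.94 CPM in WT females. Het males measured 2.86, 1.97 and 2.20 CPM and Het females 2.32, 2.07 and 2.24 CPM. WT female 7 and Het male 11 had the same value, and all other Het libraries lay below all WT libraries. The means were 3.66 ± 0.567 CPM in WT and 2.28 ± 0.312 CPM in Het (SD, n = 6 each), a difference of -0.68 log2 (-0.77 in males and -0.59 in females).

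The most accessible region of the set, chosen here after its values were seen, showed a difference in each sex. It measured 21.6, 24.7 and 21.1 CPM in WT males and 17.7, 18.0 and 17.9 CPM in Het males, and 17.8, 17.4 and 17.6 CPM in WT females and 12.4, 14.4 and 13.8 CPM in Het females. Within each sex all 3 Het libraries lay below all 3 WT libraries, but Het males and WT females overlapped because males were higher. The Het minus WT difference was -0.33 log2 in males and -0.38 log2 in females. The male minus female difference, which the rule did not use, was 0.37 log2 (SE 0.05, limma adjusted p = 0.000231).

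**Figure D4:**
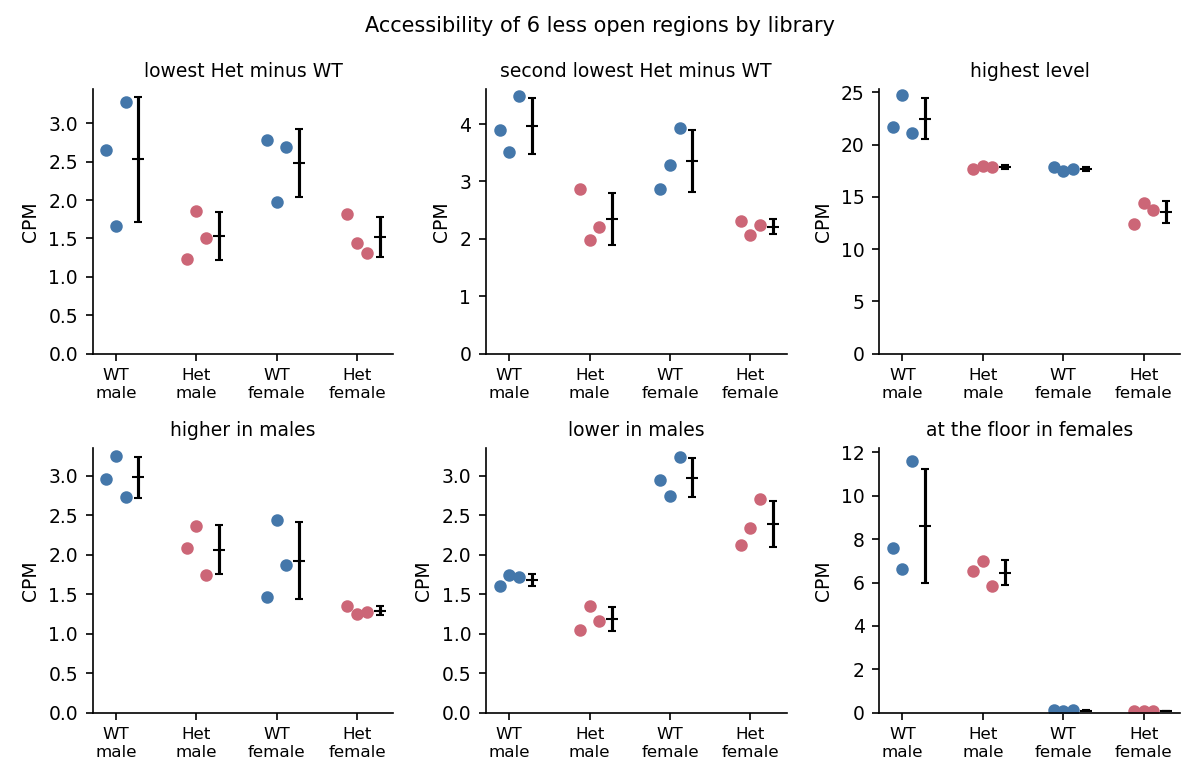
Accessibility (y axes, CPM, each starting at 0) of 6 less open regions in the 12 libraries by genotype and sex; points are libraries (blue WT, red Het) and bars the mean with SD of 3. In the top row Het points lie mostly below WT points of the same sex. In the bottom row males and females of the same genotype stand apart, and in the last panel all 6 female values are at or next to the lowest value of the table.

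For background, a limma fit over all 173029 adult regions of at least 1 CPM, with genotype and sex as terms, was read at the less open regions. Its residual variation counts 3 directions that the authors' adjustment had nearly emptied, so its SEs and p-values throughout tend to be too small. It called 145 of the 936 regions lower in Het at an adjusted p under 0.05, where 0.250% of all tested regions and 0.257% of the level band were called lower. The regions were chosen on the same contrast, so this count is no support for a difference. The called regions were 33.6% of the 432 that the fit called lower in Het. Of the other called ones, 74 were under 2 CPM, 68 were at or above 20 CPM, and 145 lay in the band with a smaller difference.

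The called regions had a median level of 3.60 CPM and a median difference of -0.44 log2, and the 791 others 2.49 CPM and -0.39 log2. From 6 CPM up 16 of 17 were called and at 2 to under 2.5 CPM 32 of 434 (7.37%), and the median SE of the Het difference in the 2 classes was 0.07 and 0.12 log2. The count fell when any 1 library was left out, by an amount that differed widely. Without WT male 1 it was 2, without Het female 44 it was 3, without WT female 58 it was 7, without Het female 21 it was 10 and without WT male 62 it was 12. It was also 24 without Het male 47, 27 without WT male 28, 40 without WT female 35, 72 without Het female 50 and 83 without Het male 11. The smallest falls were to 132 without WT female 7 and 144 without Het male 41. With the 3 directions of variation that the authors' adjustment had removed as covariates it was 5, where 0.00405% of all tested regions were called lower, and 4 of those 5 stood above 6 CPM.

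Het minus WT was below 0 in both sexes at all 936 regions. In males the median was -0.43 log2, with a range of -0.77 to -0.09, and in females -0.38 log2, with a range of -0.73 to -0.12. The difference was at or below -0.35 log2 in both sexes at 395 regions, in males alone at 349 and in females alone at 192. It was larger in males at 572 regions and in females at 364, while the rise was larger in males at 511 of the 979 more open regions. The male minus female Het effect had a median of -0.05 log2 over the less open regions, 0.01 over the more open ones and -0.002 over the band. The Het males were also the group with the widest spread at the less open regions, and its part in these counts was not tested. All 3 Het males lay below all 3 WT males at 590 regions (63.0%, against 6.56% of the band) and all 3 Het females below all 3 WT females at 577 (61.6%, against 5.53%). Both are part of the contrast that chose the regions.

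Choosing regions in one sex and reading them in the other uses libraries that the choice did not. In the band, 1957 regions had a Het minus WT difference of at most -0.35 log2 in males. Their median in females was -0.24 log2, 95.6% were below 0 and 20.2% (395) were at or below -0.35 log2. Over all band regions the female median was -0.003 log2, with 50.9% below 0 and 1.18% at or below -0.35 log2. Conversely, 1330 regions chosen in females had a median of -0.26 log2 in males, with 94.96% below 0 and 29.7% at or below -0.35 log2, against 51.1% and 1.74% of the band.

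This agreement between the sexes was measured on values from which most of their disagreement had been taken out. The 3 removed directions held 68.7% of the genotype by sex term, 0.0667% of the genotype contrast and 0.0844% of the sex contrast. Over the band the Het differences in males and females correlated at r = 0.63, across regions that share libraries and that adjustment. The 2 sexes are therefore not independent readings, and likeness in the animals and likeness left by the adjustment cannot be told apart.

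**Figure D5:**
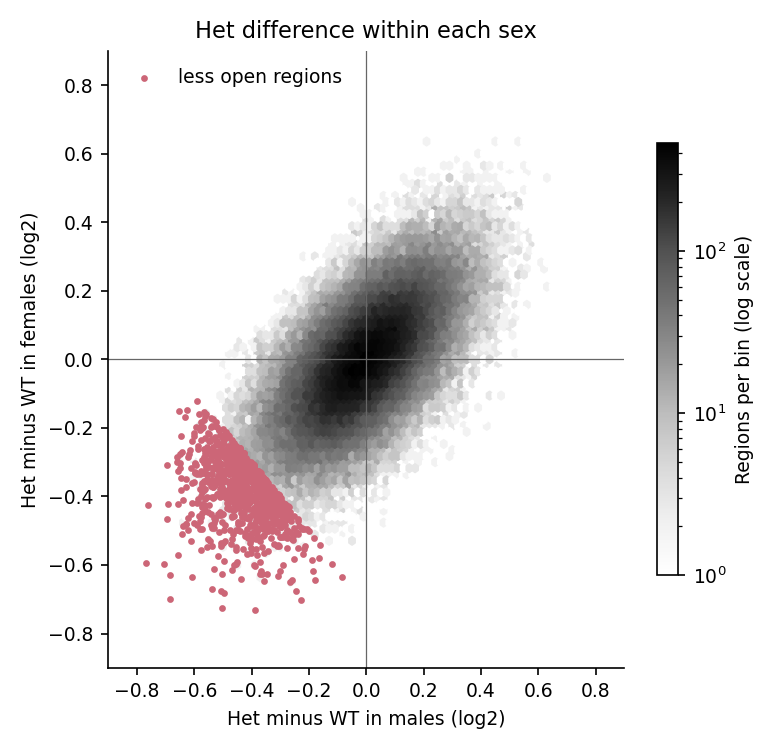
Het minus WT in females (y axis, log2) against males (x axis, log2) for the regions of the level band (grey, number per bin on a log scale) and the 936 less open regions (red points). The red points fill the lower left corner, all below 0 in both sexes, beyond the diagonal edge that the rule sets; the grey cloud stretches along the other diagonal.

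No less open region was called for a difference between the sexes in its Het effect. In limma fits with a mean per genotype and sex, 0 of the 936 were called and 0 had an unadjusted p under 0.05. The fit called 0% of all tested regions, and 0.0387% of them had an unadjusted p under 0.05. With the removed directions as covariates, 0 of the 936 were called and 14 of all tested regions (0.00809%). Because most of this term was removed before deposit, these values do not show that the 2 sexes respond alike.

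The sexes themselves differed at a small part of the less open regions, and the difference condition of the rule did not use this contrast. The level condition used the mean of both sexes, so a region near 2 CPM could reach the band through 1 sex alone. The regions named below for a sex difference are of that kind. In the limma fit 64 of 936 regions (6.84%) were called between males and females, 27 higher and 37 lower in males, where 7.25% of all tested regions and 8.43% of the band were called. The calls higher in males were 3.64% of all tested regions and 4.05% of the band, and those lower in males 3.61% and 4.38%. The median male minus female difference over the 936 was -0.02 log2, against -0.01 log2 over the band. Read by level, the share was 5.30% at 2 to under 2.5 CPM (5.57% of all regions of that class), 6.73% from 2.5 to under 3 CPM (6.53%) and 7.43% from 3 to under 4 CPM (7.27%). It was 12 of 87 (13.8%) from 4 to under 6 CPM (8.75%) and 1 of 17 from 6 CPM up (10.9%). The share of less open regions that differed by sex was thus near the background at the levels that hold most of them.

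Among the 979 regions more open in Het, 107 (10.9%) were called for sex, 79 higher and 28 lower in males, with a median of 0.05 log2. The split of the less open regions was 27 higher and 37 lower. The difference between the 2 splits was not tested. Of the 64 less open regions called for sex, 19 were also among the 145 called for genotype. Among all less open regions, 15.5% were called for genotype. Both calls come from the same fit and share its residual variation. The share called for both was not worked out for the band, and the overlap was not tested, so nothing is read from it.

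The count of 64 became 31 without WT male 1, 42 without WT female 58, 24 with no genotype term and 17 with the removed directions as covariates, all 17 of them among the 64. The last setting called 1.81% of all tested regions, against 7.25% in the main fit, whose p-values tend to be too small as said above. The differences called in the main fit were moderate: apart from 1 region, those higher in males ran from 0.24 to 0.66 log2, and those lower in males from -0.92 to -0.30 log2.

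At all_pfc_peak_118898, the region lowest in males, WT males measured 1.598, 1.74 and 1.71 CPM and Het males 1.04, 1.35 and 1.16 CPM. WT females measured 2.94, 2.74 and 3.23 CPM and Het females 2.13, 2.34 and 2.71 CPM. All 6 males lay below all 6 females, and within each sex all Het libraries lay below all WT libraries. Males averaged 1.43 ± 0.294 CPM and females 2.68 ± 0.401 CPM (SD, n = 6 each), a difference of -0.92 log2. With males under 2 CPM, the region reached the level band only through its females, so no test of the sex difference is given.

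The other region named for a lower value in males, all_pfc_peak_102559, was more variable. Males measured 1.68, 2.28 and 2.26 CPM in WT and 2.09, 1.51 and 0.773 CPM in Het, and females 3.59, 2.40 and 4.17 CPM in WT and 3.17, 1.99 and 3.48 CPM in Het. The sexes overlap at Het female 44, and Het male 47 is the lowest of all. The male minus female difference was -0.87 log2, and the region was no longer called without the trend of variance on level. Its males also averaged under 2 CPM, so it reached the level band only through its females and no test is given.

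Higher in males was all_pfc_peak_38614, at 2.96, 3.25 and 2.73 CPM in WT males, 2.09, 2.36 and 1.74 CPM in Het males, 1.47, 2.44 and 1.87 CPM in WT females and 1.35, 1.25 and 1.28 CPM in Het females. Within each genotype all males lay above all females, and within each sex all Het libraries lay below all WT libraries. The difference was 0.66 log2. Males averaged 2.52 CPM and females 1.61 CPM, so the region reached the level band only through its males and no test of the sex difference is given.

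The region highest in males, all_pfc_peak_242741, was accessible in males and at or near the lowest value of the table in females. It lies 26 rows from the end of the adult table, and it was the one less open region with a library at that lowest value. Males measured 7.60, 6.65 and 11.6 CPM in WT and 6.53, 6.996 and 5.84 CPM in Het. WT females measured 0.116, 0.0775 and 0.116 CPM, and all 3 Het females were at 0.0775 CPM, the lowest value of the table. The sexes do not overlap. The region reached the level band only through its males, so no test of the sex difference is given, and no fold against a group at the lowest value. It is 1 of the 27 regions counted as higher in males. Its Het minus WT difference of -0.38 log2 was -0.39 log2 in females, where it rests on 2 WT females that stood 1 step of the rounded values (0.0386 CPM) above the lowest value. In males it was -0.38 log2, and -0.14 log2 without WT male 62, the highest library.

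Less open regions were not bunched in the order of region numbers, which the sources used here do not relate to genome position. Of the 936, 6 (0.641%) stood next in the table to another less open region. Of the 929 band regions next to a less open region, 6 (0.646%) were less open themselves, while 0.830% of the band met the rule. Split into 20 equal stretches, the table held less open regions at 0.557% to 1.13% of the band regions in each stretch, and more open regions at 0.612% to 1.23%. Every stretch held at least 29 less open regions.

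The neighbours lay slightly low in Het, and about as much so in males. At the 923 band regions next in the table to a less open region and not themselves in the set, the median Het minus WT difference was -0.03 log2 and 57.5% were below 0. Over the rest of the band the median was -0.002 log2 and 50.8% were below 0. The male minus female difference had a median of -0.03 log2 at the same 923 neighbours too, against -0.01 log2 over the whole band. The shifts for genotype and for sex were thus of similar size, though one is set against the rest of the band and the other against all of it. The 966 neighbours of more open regions had a median of 0.02 log2, with 57.97% above 0. The Het shares come from the contrast and libraries that chose the set, so they are given without a test.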

How the data were processed

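ATAC-seq of 12 adult prefrontal cortex libraries was analysed. The authors deposited log2 CPM per numbered region after an adjustment for unwanted variation (RUVr), as the table is titled; all libraries have an upper quartile of 4.64 CPM. Per the submitters' processing notes the genome build was mm10, and the tools named, with no role, were HTSeq, STAR, Bowtie2 and Trimmomatic. The peak caller, read shifting and the number of factors were not given in the sources used here. No counting interval can be given, because the original depth is unknown. Correlations within a genotype over the band were 0.931 to 0.988, and 0 library pairs were identical.

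Levels are means of 2 to the power of the deposited value, and differences are between group means of log2 values. Tests used limma 3.58.1 in R 4.3.3 (empirical Bayes with trend, two-sided, Benjamini-Hochberg over all 173029 regions averaging 1 CPM or more), with genotype and sex as terms. They were also run on simulated data in which libraries varied independently. That run did not cover the effect of the authors' adjustment on the residual spread. The 3 directions of variation among libraries with a root mean square of 0.00790 to 0.0116 log2, against 0.223 to 0.354 in the other 8, were taken as removed by the authors' adjustment. The main fit still counts them as residual variation, so its calls tend to be too many. Regions were named as the 2 lowest for genotype and the 2 highest and 2 lowest called for sex. Members, lists and tests were chosen with earlier results of these data known. Alternatives were 0.5 CPM added before the log, quantile normalization, removal of each library's level trend by lowess, other filters, terms and thresholds, and leaving out each library.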

Additional observations from a re-analysis of the deposited data

Results flagged for a closer look

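At all_pfc_peak_242741 the value of WT male 62, 11.6 CPM, stood apart from the other 5 males, which lay between 5.84 and 7.60 CPM: the gap to its nearest neighbour was 0.695 of the range of the 6 males, above the bound of 0.625 for 6 values. Of 16 groups of 6 libraries checked (the named regions, and the medians over the less open regions), this was the only one, where chance flags about 1 in 20 groups, or 0.80 here.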

How the results depend on the processing

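The number of less open regions stayed within 1.5 times of 936 under quantile normalization, removal of the level trend, the removed directions as covariates, no upper level bound and each of the 12 left-out libraries (967 to 1283). The upper bound removed no region and the removed directions held 0.0667% of the genotype contrast, so these 2 settings could hardly change the count. Without single libraries, 699 to 815 of the regions that met the rule were among the 936. It was 322 with 0.5 CPM added before the log, 4097 at a difference of at most -0.25 log2, 66 at -0.50 log2 and 3763 with the level band starting at 1 CPM. Of the 936 regions, 145 were called in the Het comparison; this count was 5 with the removed directions as covariates, 72 with no filter on level, 2 with no sex term and 2 to 144 without single libraries. The 64 calls for sex became 17 with the removed directions as covariates, 24 with no genotype term and 31 to 74 without single libraries. The median male minus female difference stayed below 0, between -0.03 and -0.01 log2, in every setting run. Its size was always under 0.037 log2, the SD of the set's median among libraries of one genotype and sex, so nothing is read from its sign. No direction reversed at a named region in any setting run. No paired analysis was possible because the labels give each library its own number and no number is shared between groups. The depth behind the deposited values is unknown, and most of the genotype by sex term was removed before deposit, which limits what can be said within each sex.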
